A study of Mus musculus with 6 samples.

Results

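Mmp12, Itgax and 8 other genes of lipid-associated macrophages were examined in epididymal white adipose tissue (eWAT) of mice that lack MAF1, a repressor of RNA polymerase III transcription. The 10 genes (Mmp12, Itgax, Trem2, Gpnmb, Atp6v0d2, Spp1, Lgals3, Ctsk, Cd9 and Clec7a) were taken by symbol from a table of 28529 genes, and each had its own entry. They were selected on their counts in the same KO and WT libraries, with Mmp12 and Itgax leading because of their lower counts in KO, so their differences between the genotypes are given as a description and carry no test. RNA-seq libraries came from 3 Maf1-/- mice (KO) and 3 wild-type mice (WT), 1 library per mouse. All were males of the C57Bl/6J background, 22 to 24 weeks old, fed breeder chow and fasted overnight. The knockout removed the whole Maf1 coding region in every cell of the body, so adipocytes, macrophages and all other cells of the fat pad carried it. Libraries are named by genotype and replicate number.

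Macrophages that take up lipid from dying or lipid-laden adipocytes switch on a recognizable set of genes, and such cells collect around adipocytes in obese fat. TREM2, a lipid-sensing surface receptor that signals through the adaptor TYROBP and the kinase SYK, is required in mice for much of this program. Around it stand a surface integrin (CD11c, encoded by Itgax), secreted proteases, proteins of the lysosome, and the secreted proteins osteopontin and galectin-3. Several of these genes are also used by other cells: Itgax marks dendritic cells, Lgals3 and Cd9 are active in many cell types, Ctsk is expressed by fibroblasts and adipocyte precursors, and Spp1 by epithelial cells. Whole-tissue RNA mixes all of them, and fewer cells of a type and less RNA per cell cannot be told apart.

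The Maf1 gene itself had 150, 87 and 300 counts in the KO libraries (replicates 1, 2 and 3) and 655, 1120 and 852 counts in WT. As CPM, counts scaled to the size of the library, these were 15.8 ± 5.61 in KO and 63.5 ± 5.64 in WT (SD, n = 3 each), with every KO library below every WT library and none of them at 0. Library totals lay between 7207476 (KO2) and 13088316 counts in KO and between 12010807 and 15971900 counts in WT. WT1 and KO1 stood apart from the other 4 libraries on the first principal component, which held 60.7% of the variance. RNA of neighbouring organs entered unevenly: summed epididymis and testis markers were at 842, 5959 and 7773 CPM in KO1 to KO3 and at 19.9, 6626 and 3929 CPM in WT1 to WT3. Seminal vesicle markers were at 1946, 8313 and 21.1 CPM in the KO libraries and between 19.3 and 28.8 CPM in WT. Their part in the results was not tested, and values without the libraries concerned are given where they matter.

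Macrophage markers were present in all libraries. A list of 24 general macrophage markers, among them Csf1r (the CSF1 receptor), Cd68 and Emr1 (which encodes F4/80), was detected in full and summed to 2152, 2363 and 2064 CPM in the KO libraries and to 2724, 1794 and 2409 CPM in WT. These sums overlapped, and none of the 24 markers separated the genotypes. Among all genes fitted, 3.37% were lower in KO without overlap and 2.90% higher. Mmp12 and Itgax were lower in every KO library than in any WT library, as was Trem2 by a narrow margin. These genes belong to a set selected on the same counts, so nothing is read from setting them beside the markers.

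The stretches before the transcription starts of Mmp12, Itgax and Trem2 are printed because these are the genes whose KO and WT values did not overlap. In 250 bases before each RefSeq start, 12 windows of 9 of the genes could be read, and Atp6v0d2 had no window in the table. The letters TGANTCA, the core recognized by AP-1 factors with any base in the middle, were looked for on either strand. They were found before the downstream start of Mmp12 and the starts of Itgax and Trem2, and of none of the other 6 genes. Of all 32851 RefSeq windows of this length, 6.75% hold them. The strict AP-1 core TGAGTCA, looked for after the first search had been read, was present before Mmp12 and Itgax, and in 4.46% of all windows. The sequences are from RefSeq on GRCm38.p6, all on the plus strand and written 5′ to 3′. Capitals mark TGANTCA in each, together with an M-box (CATGTG or its complement) in Mmp12 and a GAGGAA core read on the opposite strand in Trem2.
Mmp12, second start, chr9:7347124-7347373: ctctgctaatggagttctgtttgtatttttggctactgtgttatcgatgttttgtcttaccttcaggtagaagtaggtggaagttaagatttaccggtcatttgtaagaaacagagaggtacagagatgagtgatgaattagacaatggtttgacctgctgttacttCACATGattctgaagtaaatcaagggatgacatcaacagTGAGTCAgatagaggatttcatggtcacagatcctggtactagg
Itgax, chr7:128129300-128129549: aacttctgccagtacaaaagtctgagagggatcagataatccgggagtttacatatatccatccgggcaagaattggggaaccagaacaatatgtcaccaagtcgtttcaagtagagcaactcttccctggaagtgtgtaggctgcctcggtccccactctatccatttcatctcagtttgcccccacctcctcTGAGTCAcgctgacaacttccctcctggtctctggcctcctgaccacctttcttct
Trem2, chr17:48346151-48346400: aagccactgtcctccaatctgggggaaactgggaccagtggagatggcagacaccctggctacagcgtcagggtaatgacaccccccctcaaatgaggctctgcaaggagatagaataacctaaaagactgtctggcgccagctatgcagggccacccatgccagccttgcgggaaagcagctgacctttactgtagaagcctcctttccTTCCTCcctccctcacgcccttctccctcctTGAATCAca
The AP-1 letters began 44 bases before the start in Mmp12, 56 bases before it in Itgax and 9 bases before it in Trem2. Mmp12 has another RefSeq start further upstream, and only the window of the downstream start, which holds the AP-1 letters, is printed. The window of the upstream start (chr9:7344147-7344396, plus strand) lacked these letters. It held GAGGAAGT, bound by the macrophage factor PU.1, on the opposite strand 88 bases before the start. Which start was used in these libraries was not determined. That longer PU.1 sequence also occurred before Spp1, and in 2.44% of all windows. The shorter core GAGGAA lay before 5 of the genes (Clec7a, Ctsk, Mmp12, Spp1 and Trem2) and in 23.3% of all windows. The M-box, read by MITF and TFE factors, occurred before Mmp12 and Cd9 (12.3% of all windows), and the E-box CACGTG before none of the 9 genes (6.02% of all windows). These are matches of letters only, and no binding was measured. The AP-1 letters are among 6 motifs searched, and the 3 genes were set apart from the others by the counts that also selected the set, so nothing is read from the coincidence.

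Per transcript length, Lgals3 and Cd9 were the most abundant of the 10 genes and Spp1 the least in both genotypes. Lgals3 was at 55.5 ± 33.1 TPM (counts divided by transcript length and scaled to the same total in each library) in KO and 62.4 ± 18.0 TPM in WT, and Cd9 at 47.5 ± 23.5 TPM in KO and 52.2 ± 3.72 TPM in WT (SD, n = 3 each). The ranges of Lgals3 and Cd9 overlapped in both genotypes, and both genes were above Gpnmb, the next in order, in every library of either genotype. In WT the order went on with Gpnmb (21.2 TPM), Trem2 (14.3), Ctsk (13.5), Mmp12 (9.85), Clec7a (6.39), Atp6v0d2 (5.72), Itgax (3.80) and Spp1 (1.14 TPM). Of the neighbours in this WT order, only Cd9 and Gpnmb, Mmp12 and Clec7a, and Itgax and Spp1 had ranges that did not meet. In KO Mmp12 stood 8th at 1.96 ± 0.846 TPM, whereas in WT it stood 6th. The order depends on the length used, which was that of the longest coding transcript (3607 bases for Mmp12, whose shortest has 362). With the union of all exons as the length, an alternative added after the data were seen, Mmp12 was at 1.03 TPM in KO and 5.21 TPM in WT, and Trem2, which has retained-intron transcripts, was at 1.94 TPM in KO and 3.33 TPM in WT. Trem2 moved furthest, to the 7th place in KO and the 9th in WT, against the 5th and the 4th.

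Mmp12 encodes macrophage elastase, a secreted metalloproteinase that cuts elastin and other matrix proteins. It lies on chromosome 9 (mm9, chr9:7344381-7369499, plus strand). It had 47, 61 and 137 counts in the KO libraries and 344, 678 and 340 counts in the WT libraries, in the order of the replicate numbers, as in all values that follow. In CPM these were 4.26, 8.17 and 10.1 in KO and 29.9, 40.5 and 26.6 in WT. The genotypes were far apart: the lowest WT library was 2.62 times the highest KO library. The means were 7.52 ± 2.99 CPM in KO and 32.3 ± 7.27 CPM in WT (SD, n = 3 each), a log2 fold change of −2.10 with a standard error (SE) of 0.37, so that KO held 23.3% of the WT level. Of the 16101 genes with enough counts to be fitted, 0.901% had a log2 fold change as low as this or lower. Leaving out each library in turn moved the value only between −2.39 (without KO3) and −1.82 (without KO1). Without both replicate 1 libraries it was −1.86, and without both replicate 2 libraries −1.93. The libraries left out there include the one with the lowest sum of epididymis markers (WT1) and the one with the highest sum of seminal vesicle markers (KO2). Mmp1b overlaps Mmp12 on the opposite strand and had at most 15 counts in any library.

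Itgax encodes integrin alpha X (CD11c), which pairs with the beta 2 chain to form complement receptor 4. The gene is on chromosome 7 (mm9, chr7:135273061-135294171, plus strand). Counts were 71, 44 and 96 in the KO libraries, against 146, 218 and 218 in WT, which gave 6.43, 5.89 and 7.10 CPM in KO and 12.7, 13.0 and 17.0 CPM in WT. The KO libraries were closely alike, and the lowest WT library was 1.79 times the highest of them. The mean was 6.47 ± 0.607 CPM in KO and 14.2 ± 2.41 CPM in WT (SD, n = 3 each), with a log2 fold change of −1.13 (SE 0.25) or 45.4% of the WT level. It stayed between −1.21 and −0.97 when single libraries were left out. A log2 fold change below −1 was found for 3.30% of all genes fitted and for 2 of the 10 genes, Mmp12 and Itgax.

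**Figure D1:**
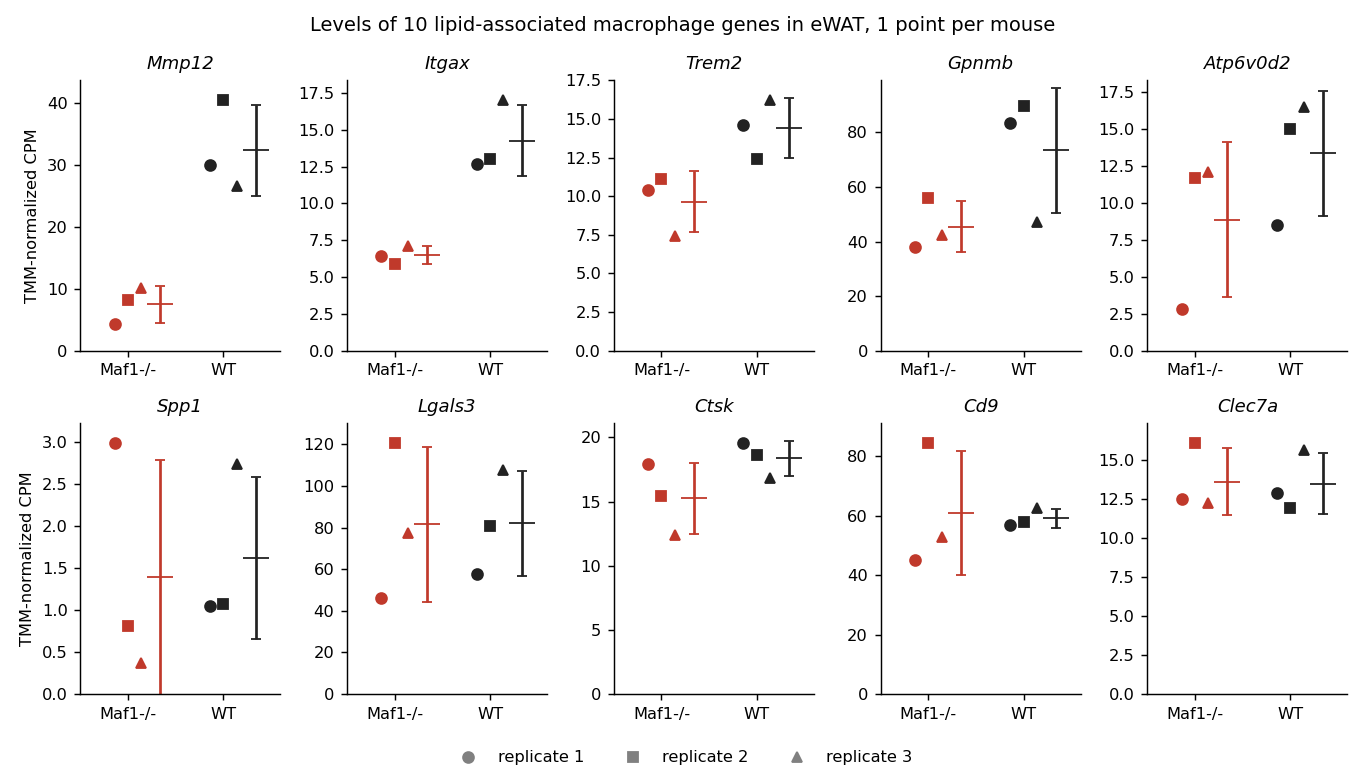
Levels of the 10 genes in CPM normalized by trimmed mean of M values (TMM), on axes that start at 0, with Maf1-/- (red) left of WT (black). Each point is 1 mouse, its shape gives the replicate number, and the bar beside the points is mean ± SD (n = 3; for Spp1 the lower end in KO runs below 0 and is not drawn). Mmp12 (4.26 to 10.1 CPM in KO, 26.6 to 40.5 CPM in WT), Itgax and Trem2 do not overlap between the genotypes, and the other 7 genes do.

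Trem2, the receptor of the program, had 115, 83 and 100 counts in KO and 168, 208 and 208 in WT. This corresponds to 10.4, 11.1 and 7.40 CPM in KO and 14.6, 12.4 and 16.2 CPM in WT. Again all KO libraries were lower, but KO2 and WT2 were close, with a ratio of 1.12. The log2 fold change was −0.58 (SE 0.26), or 66.8% of the WT level, and remained between −0.78 and −0.42 in all 18 alternative fits. With Mmp12 and Itgax, Trem2 brings the genes that were lower in KO without overlap to 3 of 10. Among all genes fitted 3.37% were lower in KO without overlap and 2.90% higher, and because the genes were assembled from this same contrast, nothing is read from the comparison.

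The receptor Clec7a (Dectin-1), which binds fungal beta-glucans and also signals through SYK, had nearly the same level in both genotypes. It was at 12.5, 16.1 and 12.2 CPM in KO and at 12.9, 11.9 and 15.6 CPM in WT, with a log2 fold change of 0.01 (SE 0.23). The highest library of all was KO2 and the lowest WT2. The sign of its fold change turned with the library left out, between −0.12 (without KO2) and 0.15 (without WT3).

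Gpnmb, a glycoprotein of lysosomes and the cell surface that rises when macrophages are loaded with lipid, had 38.0, 55.8 and 42.2 CPM in KO and 83.3, 89.7 and 47.3 CPM in WT. WT1 and WT2 were well above all KO libraries, but WT3 lay below KO2, so the groups overlapped. The log2 fold change was −0.70 (SE 0.29). Without WT3 it was −0.91 and without WT2 −0.53, and it was below 0 in all 18 alternatives.

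Atp6v0d2, the d2 subunit of the proton pump of lysosomes (V-ATPase) that is found in macrophages and osteoclasts, varied most with the replicate number. It was at 2.81, 11.6 and 12.1 CPM in KO and at 8.52, 15.0 and 16.5 CPM in WT, lowest in KO1 and next lowest in WT1. Each KO library was below the WT library of the same number, yet KO2 and KO3 were above WT1. The log2 fold change was −0.59 (SE 0.57). It was −0.17 without KO1, −0.83 without WT1, −0.41 without both of these, and −0.89 without KO3. Its size thus varied with the library left out, while its sign did not. KO1 and WT1 are the libraries that stood apart on the first component. They also had the lowest sums of epididymis and testis markers (842 CPM in KO1 and 19.9 CPM in WT1, against 3929 to 7773 CPM elsewhere). The part of this in the Atp6v0d2 values was not tested.

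Ctsk (cathepsin K), a protease that digests collagen and elastin in acid compartments, was at 17.9, 15.4 and 12.4 CPM in KO and at 19.6, 18.6 and 16.9 CPM in WT. KO1 was above WT3, and otherwise KO libraries were the lower ones. The log2 fold change was −0.27 (SE 0.21), between −0.40 and −0.14 over the alternatives.

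Spp1 encodes osteopontin, a secreted ligand of integrins and CD44 and a leading marker of lipid-associated macrophages in obese tissue. It was hardly detected here, with 33, 6 and 5 counts in KO and 12, 18 and 35 counts in WT. The highest value of all was in KO1 (2.99 CPM) and the lowest in KO3 (0.37 CPM), with WT between 1.04 and 2.73 CPM. No direction can be given: the log2 fold change was −0.21 (SE 0.86) with all libraries, −1.49 without KO1 and 0.39 without WT3.

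Lgals3 (galectin-3, a secreted lectin that binds galactosides and damaged lysosomes) was at 46.3, 121 and 77.5 CPM in KO and at 57.6, 80.6 and 108 CPM in WT. Cd9, a tetraspanin of the plasma membrane, was at 45.1, 84.5 and 52.9 CPM in KO and at 56.9, 57.7 and 62.6 CPM in WT. Both genes were highest in KO2 and lowest in KO1, with WT in between, and neither differed in the mean (log2 fold change −0.01, SE 0.39, for Lgals3 and 0.04, SE 0.25, for Cd9). Without KO2 the values were −0.40 for Lgals3 and −0.27 for Cd9, and without KO1 they were 0.27 and 0.22. KO2 was also the library with the most smooth muscle marker RNA (6610 CPM, against 3181 and 844 CPM in KO1 and KO3 and 823 to 1141 CPM in WT) and the most seminal vesicle marker RNA; the part of these tissues in the 2 values was not tested.

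**Figure D2:**
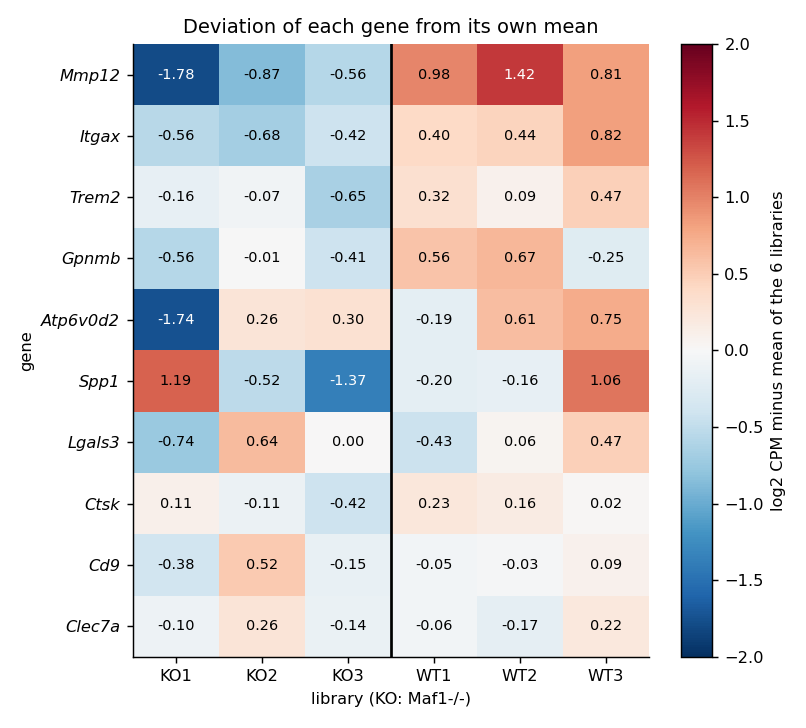
Deviation of each gene (rows) from its own mean over the 6 libraries (columns, KO left of the line), in log2 CPM, blue for lower and red for higher. Mmp12 runs from −1.78 in KO1 to 1.42 in WT2, Itgax and Trem2 change colour at the line, and Spp1, Lgals3 and Cd9 follow single libraries.

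Of the 10 genes, 8 had a log2 fold change below 0 and 2 (Cd9 and Clec7a) above 0, with a median of −0.43 against 0.01 over all genes fitted, of which 48.9% were below 0. All 10 passed the filter on low counts. The 6 genes Mmp12, Itgax, Trem2, Gpnmb, Atp6v0d2 and Ctsk were below 0 in all 18 alternatives. The signs of Spp1, Lgals3, Cd9 and Clec7a depended on the setting. The genes therefore did not change as a block: the range went from a 23.3% residual level for Mmp12 to levels of 99.4% to 103% of WT for Lgals3, Clec7a and Cd9.

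**Figure D3:**
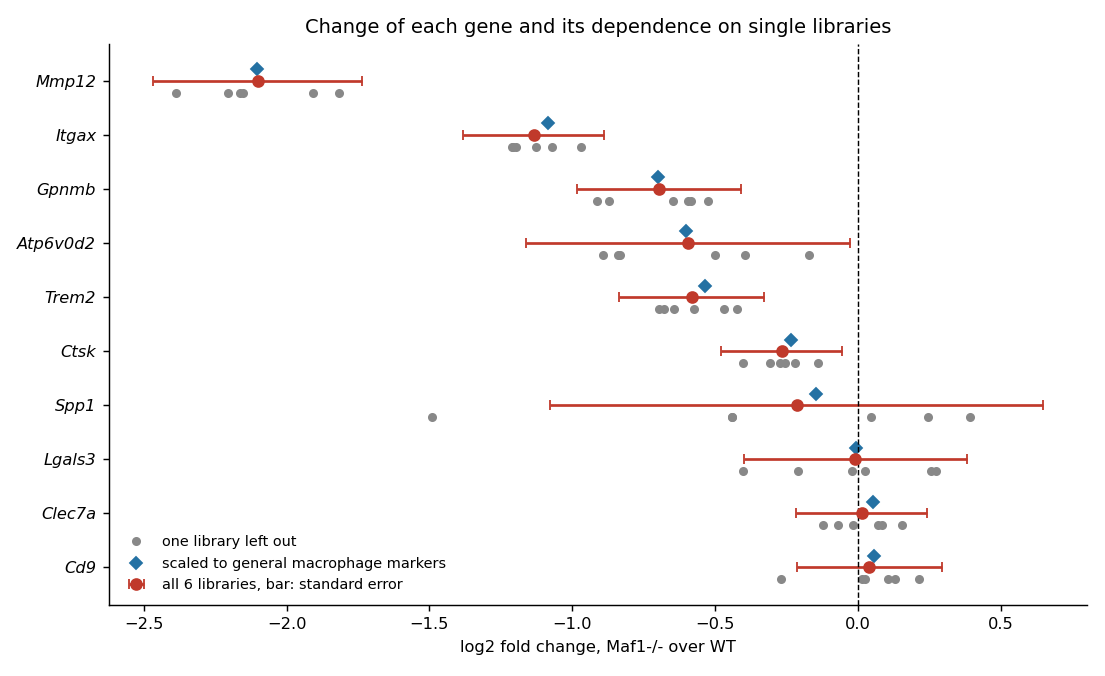
Log2 fold change of each gene, Maf1-/- over WT. Red points with bars give the fit to all 6 libraries with its SE, grey points the fits with 1 library left out, and blue diamonds the fit scaled to the 24 general macrophage markers. Mmp12 (−2.10) and Itgax (−1.13) stay far from 0 in all of them, and Spp1 spreads from −1.49 to 0.39.

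In the quasi-likelihood test across all 16101 genes, no gene passed an adjusted p of 0.05 in either direction (percent called: 0). At an unadjusted p under 0.05, 0.913% of genes were lower and 0.963% higher, or 1.88% in all. DESeq2 called 8 genes lower (0.0461% of 17342) and 21 higher (0.121%), and the edgeR exact test called 2 lower and 2 higher (0.0124% each). Because the 10 genes were selected on these libraries, no call of any of them is given.

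Mmp12, Itgax and Trem2, the genes whose CPM did not overlap, were also expressed relative to macrophage marker counts. Per 1000 counts of the 24 general macrophage markers, Mmp12 had 1.98, 3.46 and 4.91 counts in KO and 11.0, 22.6 and 11.0 counts in WT. Itgax had 2.99, 2.49 and 3.44 in KO and 4.66, 7.26 and 7.07 in WT, and Trem2 had 4.84, 4.70 and 3.58 in KO and 5.36, 6.92 and 6.74 in WT. The genotypes did not overlap for any of the 3 ratios. In CPM, 3.37% of all genes fitted were lower in KO without overlap and 2.90% higher. The 3 genes were taken because their CPM did not overlap, from a set selected on these counts, so nothing is read from the ratios. The part of macrophage content in the differences was not tested. Scaling the libraries to these markers gave log2 fold changes of −2.10 for Mmp12, −1.09 for Itgax, −0.54 for Trem2 and −0.70 for Gpnmb, close to the values above.

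**Figure D4:**
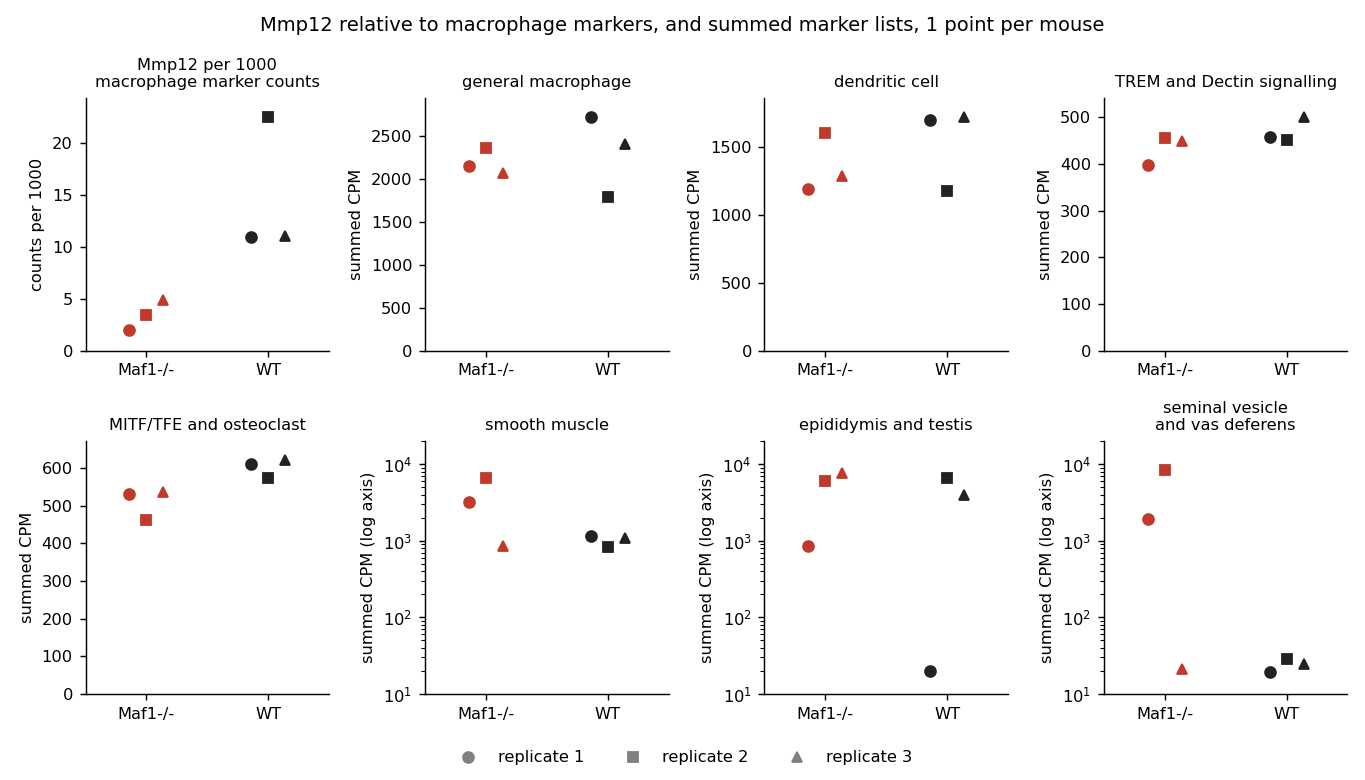
Mmp12 counts per 1000 counts of 24 general macrophage markers, and summed CPM of 7 marker lists, Maf1-/- (red) left of WT (black), 1 point per mouse. The last 3 panels have log axes. The Mmp12 ratio (1.98 to 4.91 in KO, 11.0 to 22.6 in WT) does not overlap between the genotypes, and Mmp12 was selected on these counts. The sum of MITF/TFE and osteoclast genes does not overlap either, by a narrow margin, and the sums of macrophage and dendritic cell markers overlap. Seminal vesicle markers are high in KO1 and KO2, and epididymis markers are lowest in WT1 (19.9 CPM).

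The direct partners of the 10 proteins were examined next. Tyrobp, the adaptor of TREM2, had a log2 fold change of −0.02 (SE 0.22), and −0.29 without both replicate 2 libraries. Syk, the kinase downstream of both TREM2 and Dectin-1, was at 68.7, 52.9 and 83.7 CPM in KO and at 88.5, 109 and 87.9 CPM in WT. All KO libraries of Syk were below WT, with a log2 fold change of −0.47 (SE 0.22) that was −0.19 without both replicate 2 libraries. Card9, which relays the Dectin-1 signal, was at −0.28 (SE 0.68).

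Itgb2, the beta 2 chain that pairs with CD11c, was at 39.8, 34.8 and 47.7 CPM in KO and at 61.2, 47.1 and 64.6 CPM in WT. The groups touched, KO3 being above WT2, with a log2 fold change of −0.50 (SE 0.20). The osteopontin receptors Cd44 and Itgav were at −0.24 (SE 0.27) and −0.003 (SE 0.16). Atp6v0d1, the d subunit used in most tissues, was at 0.18 (SE 0.19), opposite in sign to Atp6v0d2.

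Eln, which encodes the elastin that MMP12 degrades, was at −0.29 (SE 0.32), and Timp1, an inhibitor of metalloproteinases, at 0.60 (SE 0.71). The cathepsin inhibitor Cst3 was at −0.06, or −0.34 without both replicate 2 libraries, and cathepsin S (Ctss) at −0.12. Of the tetraspanin partners, Cd81 was at −0.22 and Cd63 at 0.56, and Cd63 was high in KO2 alone (86.9 CPM, against 21.9 and 29.4 CPM in the other KO libraries and 28.7 to 34.4 CPM in WT), with a log2 fold change of −0.28 without that library. Lgals1 (galectin-1) was at 0.004, Acp5 (tartrate-resistant acid phosphatase) at −0.45, Apoe at 0.04 and lipoprotein lipase (Lpl) at −0.14, which was −0.96 without KO1. The KO and WT ranges of all these partners except Syk overlapped, as did those of Cd68 (−0.36), Emr1 (−0.33) and Csf1r (−0.19).

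The wider programs to which the genes belong were summarised by their medians. Because the 10 genes were selected on these libraries, nothing is read from setting their median beside these. No gene of any list below passed the test over all genes. Of 30 other genes of the lipid-associated macrophage program, 14 were above 0 and 16 below, with a median log2 fold change of −0.04, and 2 were lower in KO without overlap: the lysosomal proteases Ctsl (−0.25) and Ctsz (−0.45). Hvcn1, a voltage-gated proton channel of phagocytes, was at 13.0, 12.7 and 16.5 CPM in KO and at 19.6, 16.2 and 23.0 CPM in WT (−0.48, SE 0.23), KO3 being above WT2. Abcg1, a cholesterol exporter, was at −0.77 (SE 0.40), with WT1 at 257 CPM and the other libraries between 65.4 and 125 CPM; without both replicate 1 libraries it was −0.06. The 24 general macrophage markers split into 10 above and 14 below 0 with a median of −0.04.

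Of 16 metalloproteinases and their inhibitors other than Mmp12, 7 were above and 9 below 0 (median −0.06), and none separated the genotypes. Mmp14, which activates MMP2 at the cell surface, was at −0.17 (SE 0.16) and Mmp28 at −0.55 (SE 0.44). Of 16 genes of elastic fibres, 13 were below 0 (median −0.17), with overlapping values for every gene, fibrillin Fbn1 included (−0.53, SE 0.34). Of 16 integrins and their ligands, 13 were below 0 with a median of −0.06, with Itgb5 lower (−0.33, SE 0.18) and the fibrinogen chain Fga higher (1.29, SE 0.85) in KO without overlap.

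Of 19 genes of TREM and Dectin signalling, 9 were above and 10 below 0 (median −0.02), and 3 were lower without overlap: Syk, the lectin Clec1a (−0.69, SE 0.29) and the exchange factor Vav3 (−0.23, SE 0.16). Subunits of the V-ATPase other than Atp6v0d2 numbered 23, of which 14 were above 0 (median 0.03), with no gene separating the genotypes. Of 16 cathepsins and cystatins, 7 were above and 9 below 0 (median −0.04). Among 20 tetraspanins and galectins the median was −0.04, and 2 were lower without overlap: Cd151 (−0.34, SE 0.20) and Tspan4 (28.9, 37.5 and 32.8 CPM in KO, against 54.7, 41.3 and 45.1 CPM in WT; −0.51, SE 0.19, and −0.29 without both replicate 1 libraries).

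MITF and its relatives TFEB and TFE3 drive lysosomal genes and, in osteoclasts, Ctsk, Atp6v0d2 and Acp5. Of 15 genes of this group, 5 were above and 10 below 0 (median −0.16). Dcstamp, needed for the fusion of macrophages into giant cells, was at 0.18, 0.13 and 0.81 CPM in KO and at 1.13, 1.07 and 1.33 CPM in WT (−1.55, SE 0.76), and Tfe3 was at 40.8, 24.0 and 36.5 CPM in KO and at 54.9, 41.9 and 43.7 CPM in WT (−0.47, SE 0.24). The sum over the 20 listed genes was 532, 462 and 536 CPM in KO and 611, 574 and 622 CPM in WT. It was the 1 list sum of 19 in which the genotypes did not overlap, and the margin was narrow. Acp5, whose own values overlapped, made up a large part of it. Among all genes fitted 3.37% were lower in KO without overlap and 2.90% higher, and nothing is read from 1 such sum.

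**Figure D5:**
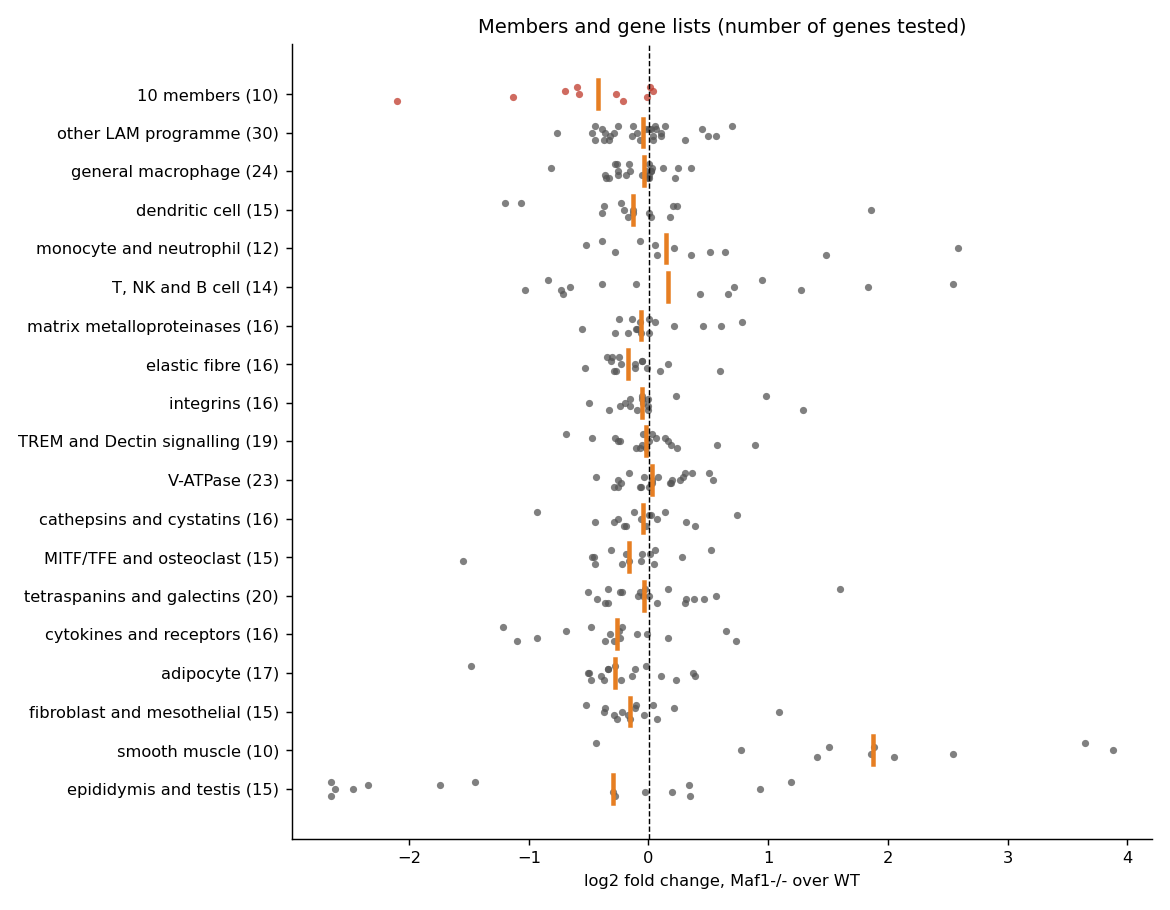
Log2 fold change, Maf1-/- over WT, of the 10 genes (red) and of the genes tested in 18 lists (grey), each point 1 gene, with the number of genes in brackets. Orange bars are medians and the dashed line is the median of all genes fitted (0.01). The median of the 10 genes is −0.43, that of the other lipid-associated macrophage genes −0.04, and smooth muscle genes are at 1.87. The 10 genes were selected on these libraries, so their median is shown beside the others without a comparison.

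Because Itgax also marks dendritic cells, 15 dendritic cell genes were examined. Of these, 6 were above and 9 below 0 (median −0.13). Cd209a, a marker of monocyte-derived dendritic cells, was at 5.80, 4.69 and 7.18 CPM in KO and at 14.7, 9.67 and 12.8 CPM in WT, lower in all KO libraries (−1.07, SE 0.30). Xcr1, a chemokine receptor of cross-presenting dendritic cells, was at 2.26, 2.41 and 0.81 CPM in KO and at 0.35, 0.36 and 0.78 CPM in WT. It was higher in all KO libraries (1.86, SE 0.67), but its levels were low and KO3 was barely above WT3. Of the same list, Clec9a (0.24, SE 0.51), Batf3 (0.01, SE 0.37) and Irf8 (−0.21, SE 0.26) had overlapping values. The summed list overlapped, at 1189 to 1604 CPM in KO and 1177 to 1725 CPM in WT. How much of the Itgax RNA came from macrophages and how much from dendritic cells was not measured.

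Markers of the other cells of the fat pad were read for the same libraries. Monocyte and neutrophil genes had a median of 0.14 over 12 genes, with Plac8 highest in KO2 (185 CPM, against 23.6 and 31.1 CPM in the other KO libraries and 3.28 to 31.4 CPM in WT). Lymphocyte genes had a median of 0.16 over 14, and 2 of them were higher without overlap: Igj, which encodes the joining chain of antibodies (42.9, 98.1 and 49.4 CPM in KO, against 15.1, 26.0 and 12 CPM in WT; 1.84, SE 0.43), and Cd8a (1.45, 2.95 and 1.18 CPM in KO, against 0, 0.36 and 0.55 CPM in WT). Of 16 cytokines and receptors that act on macrophages, 13 were below 0 (median −0.27), the chemokine Ccl7 at −1.22 (SE 0.73) and the growth factor Csf1 at −0.37 (SE 0.23), both with overlapping values. The interleukin receptor chain Il13ra1 was the 1 gene of that list whose genotypes did not overlap (0.16, SE 0.19, higher in KO).

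Of 17 adipocyte genes, 13 were below 0 with a median of −0.28 and none passed the test. Their summed level overlapped, at 38801 to 68711 CPM in KO and 51641 to 66962 CPM in WT, and was highest in KO1. Leptin (Lep), which follows fat mass, was at 167, 141 and 188 CPM in KO and at 223, 340 and 824 CPM in WT, lower in all KO libraries (−1.48, SE 0.49), and −0.75 without WT3. Adipoq (−0.48, SE 0.29) and Plin4 (−0.49, SE 0.33) did not overlap either, Plin4 being at −0.21 without both replicate 1 libraries. Fibroblast and mesothelial genes had a median of −0.15 over 15 genes. Smooth muscle genes had a median of 1.87, with 9 of 10 above 0 and KO1 and KO2 high, and epididymis and testis genes a median of −0.29 over 15. The part of these shifts in the values of Mmp12 and Itgax was not tested; the values without both replicate 1 and without both replicate 2 libraries are those given above.

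Likeness across the 6 libraries was taken as Pearson's r of log2 CPM, over the fitted genes outside the set and the lists. The genes most like Mmp12 were Nnat (0.990), Arhgap44 (0.984), Akap12 (0.982), Tmem38b (0.979) and Btla (0.973). Nnat, an imprinted gene that encodes neuronatin, was at 351, 568 and 635 CPM in KO and at 1187, 1246 and 1181 CPM in WT, with the libraries in exactly the order of Mmp12. Among the genes nearest to Itgax were 1110059M19Rik (0.983), Scn3a (0.983), Klf14 (0.979) and Klraq1 (0.977). Klf14, a transcription factor gene tied to adipocyte metabolism, was at 1.81, 1.34 and 2.74 CPM in KO and at 4.69, 6.03 and 8.44 CPM in WT. These coefficients rest on 6 libraries that share the split by genotype and were picked as the highest among those genes. They are a description of likeness only.

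Within the set, Mmp12 was most like Itgax by Pearson's r (0.888), then Gpnmb (0.791), Atp6v0d2 (0.699) and Trem2 (0.619). Its r with Spp1 (−0.07) and Clec7a (−0.08) was near 0. By Spearman's rank correlation the order differed, with 0.829 for Gpnmb and 0.771 for Itgax. Mmp12 and Itgax lead the set because of their lower counts in KO, so nothing is read from their likeness over libraries split by genotype. Itgax was nearest to Mmp12 and then to Trem2 (0.775). Genes of the set and of the lists had been left out before the 5 nearest genes were taken, so these cannot include a member.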

How the data were processed

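eWAT RNA of 6 mice was sequenced, and the authors aligned reads to mm9 with GSNAP and counted them per gene with HTSeq; CASAVA and edgeR are also named in the submitters' processing notes. The deposited table holds one value per gene and library in the unit of expected counts, named so because a last line of the sheet holds fractions; the values of all 28529 genes are whole, so rounding changed none. A further 6 per-sample columns of normalized counts and the 4 columns of the authors' own comparison (fold change, mean level, p and adjusted p) were not used, nor were the tables of polymerase III loci. The 10 genes and the 19 gene lists were chosen with earlier results of these data known. The labels give genotype and replicate number, and the paper gives n = 3 per group. Each library was taken as 1 mouse, and p-values measure the spread between these mice.

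Genes were filtered with filterByExpr (16101 kept), scaled by TMM, and fitted with edgeR 4.0.16 (R 4.3.3) by genotype, KO over WT, with the quasi-likelihood test and Benjamini-Hochberg adjustment over all genes at 0.05. Fold changes are log2 with SE. TPM used the longest protein-coding transcript of GENCODE M1 (mm9), which matched 28339 genes. Alternatives were DESeq2 1.42.0, the edgeR exact test, limma 3.58.1 voom, other scalings and filters, a replicate block, and leaving out libraries. The block treated samples of the same replicate number as pairs. Their deviations from the group means had correlations of 0.66, 0.36 and 0.34. For WT2, the correlation with KO3 (0.47) was higher than with KO2, and that of KO2 with WT3 was 0.29. The values thus set replicate 1 apart and do not show that numbers 2 and 3 are pairs, and the labels state no pairing. Scripts were tested on simulated data. Named genes were the 10, 20 fixed partners, up to 3 genes per list with the smallest unadjusted p, and the 5 genes nearest to Mmp12 and Itgax, of which 1 is not reported here; Fn1, Ctse, Mmp17 and the like that met the rule without bearing on the set, and organ genes, are summarised by list. Genes of a list whose genotypes did not overlap were also named, after their values were seen. Motifs were searched on both strands in 250 bases before RefSeq starts (GRCm38.p6). Mzb1, Sirpb1a, Il13 and Sbp were listed but not analysed here.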

Additional observations from a re-analysis of the deposited data

How the results depend on the processing

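The count of genes past the adjusted threshold was 0 higher and 0 lower with the quasi-likelihood test and stayed at 0 in both directions under the other scalings, filters, limma voom, the replicate block and each leave-one-out fit. DESeq2 called 21 genes higher and 8 lower, and the edgeR exact test 2 higher and 2 lower; among the listed genes DESeq2 called 2 higher, against 0. The replicate block left the calls as they were, with log2 fold changes of −2.15 for Mmp12 and −1.13 for Itgax. Of 180 alternative values of the 10 genes, 178 moved by less than the SD between replicates and 2 moved by more, both for Spp1 (−1.49 without KO1 and −1.74 without WT1 and KO1); the cause was not tested. Of the single-gene and list values in all, 1918 held and 22 moved; those of genes named in the report include Ccl7 (−2.33) and Dcstamp (−2.80) without KO3, Plac8 (4.27) without WT2 and the lymphocyte median (0.66) with a CPM of at least 1 in 3 libraries. Levels per length of Mmp12 and Trem2 in both genotypes, and of Cd9 in WT, moved with the union of exons. With 3 mice per genotype and 7207476 to 15971900 counts per library, Spp1, Dcstamp, Xcr1 and Cd8a rest on few counts.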
